A study of Drosophila melanogaster with 12 samples.

Results

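Cytoplasmic ribosomal protein genes were examined in a table of transcript 3′ ends from adult Drosophila heads. Members were the clusters of 3′-end reads that name a gene whose symbol begins with RpL, RpS or RpLP, with the scaffold of the ribosomal DNA repeat left out. Of 92 such genes in the annotation, 86 were named, out of 9008 protein-coding genes named in all. They were covered by 383 of 30334 non-overlapping clusters (1.26%).

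The study asked how Pumilio (Pum), an RNA-binding repressor of translation, associates with 3′ UTR isoforms of the same gene. It compared 4 groups of 3 libraries each. The groups were pum IP and pum input, from flies whose endogenous pum locus carries a C-terminal Flag-HA tag, and w118 IP and w118 input, from w1118 flies without the tag. All groups were made from UV-cross-linked head powder of adult flies raised at 25C, IP libraries were recovered with an anti-Flag antibody, and the number of animals pooled per library and their age are not given in the sources used here.

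The measured quantity was the count of reads in each cluster, and the 12 count columns name no library. Counts were therefore used only as their sum, which mixes IP and input of both genotypes and is no level in any group. No replicate spread exists for these values, and neither the IP nor the tag could be compared with its control. The 30334 clusters held 101347421 reads. Pooled reads of the head cell type markers were 643722 for the 3 photoreceptor genes, 142742 for the 4 neuronal genes and 34982 for the 2 glial genes. The 2 fat body genes had 281090, of which apolpp had 278926 and Lsp2 2164. None of the 3 female germline markers (osk, nanos and vas) and only Mst87F of the 3 male germline markers (548 reads) was named. No molecular identifiers are given in the sources used here, so reads may not be separate molecules. Intervals on shares of reads cover the counting error of reads only. Those on medians and on shares of genes or clusters treat genes or clusters as the units. None covers the spread between libraries.

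Ribosomal proteins surround the ribosomal RNAs of the small (RpS) and large (RpL) subunits, and the acidic P proteins (RpLP) form the stalk that recruits elongation factors. Every translating cell needs nearly all of them in matched amounts, and fly mutants that lack a copy of such a gene often show the Minute phenotype of slow development and thin bristles. Several of these genes host small nucleolar RNAs, which guide modification of ribosomal RNA, in their introns. A few have a second gene copy, which in some cases is used mainly in the germline.

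The first question was how much of the sequenced 3′-end signal came from these genes. Ribosomal protein clusters held 20238875 of 101347421 pooled reads (19.97%, Wilson 95% interval 19.96% to 19.98%), from 0.955% of the protein-coding genes named. In comparison, the 72 mitochondrial ribosomal protein genes held 0.310% and the 34 proteasome subunit genes 0.305%. A list of 13 other translation genes, among them the elongation factors eEF1alpha1 and eEF2, the ribosome-bound scaffold Rack1 and sta, a small-subunit protein whose symbol lies outside the naming rule, held 1.32%. The share was sensitive to how the table was read. Some rows overlap on the same strand, name the same genes in another order and count the same reads again, and with these rows kept the share was 22.7%.

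Per gene, ribosomal protein genes had a median of 204602 reads (exact binomial 95% interval 178295 to 247403, n = 86), compared with 3668 for mitochondrial ribosomal protein genes, 7321 for proteasome genes and 1778 for all protein-coding genes. Of the 50 protein-coding genes with the most reads, 28 were ribosomal protein genes, and 73 were among the first 200. Large-subunit genes had a median of 209234 reads (178295 to 263890, n = 51) and small-subunit genes 201238 (135821 to 244652, n = 35), with intervals that overlapped broadly. Within the family, the quartiles of the reads were 135689 and 293874, a ratio of 2.17, and 66 of 86 genes lay between 100000 and 600000 reads.

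**Figure D1:**
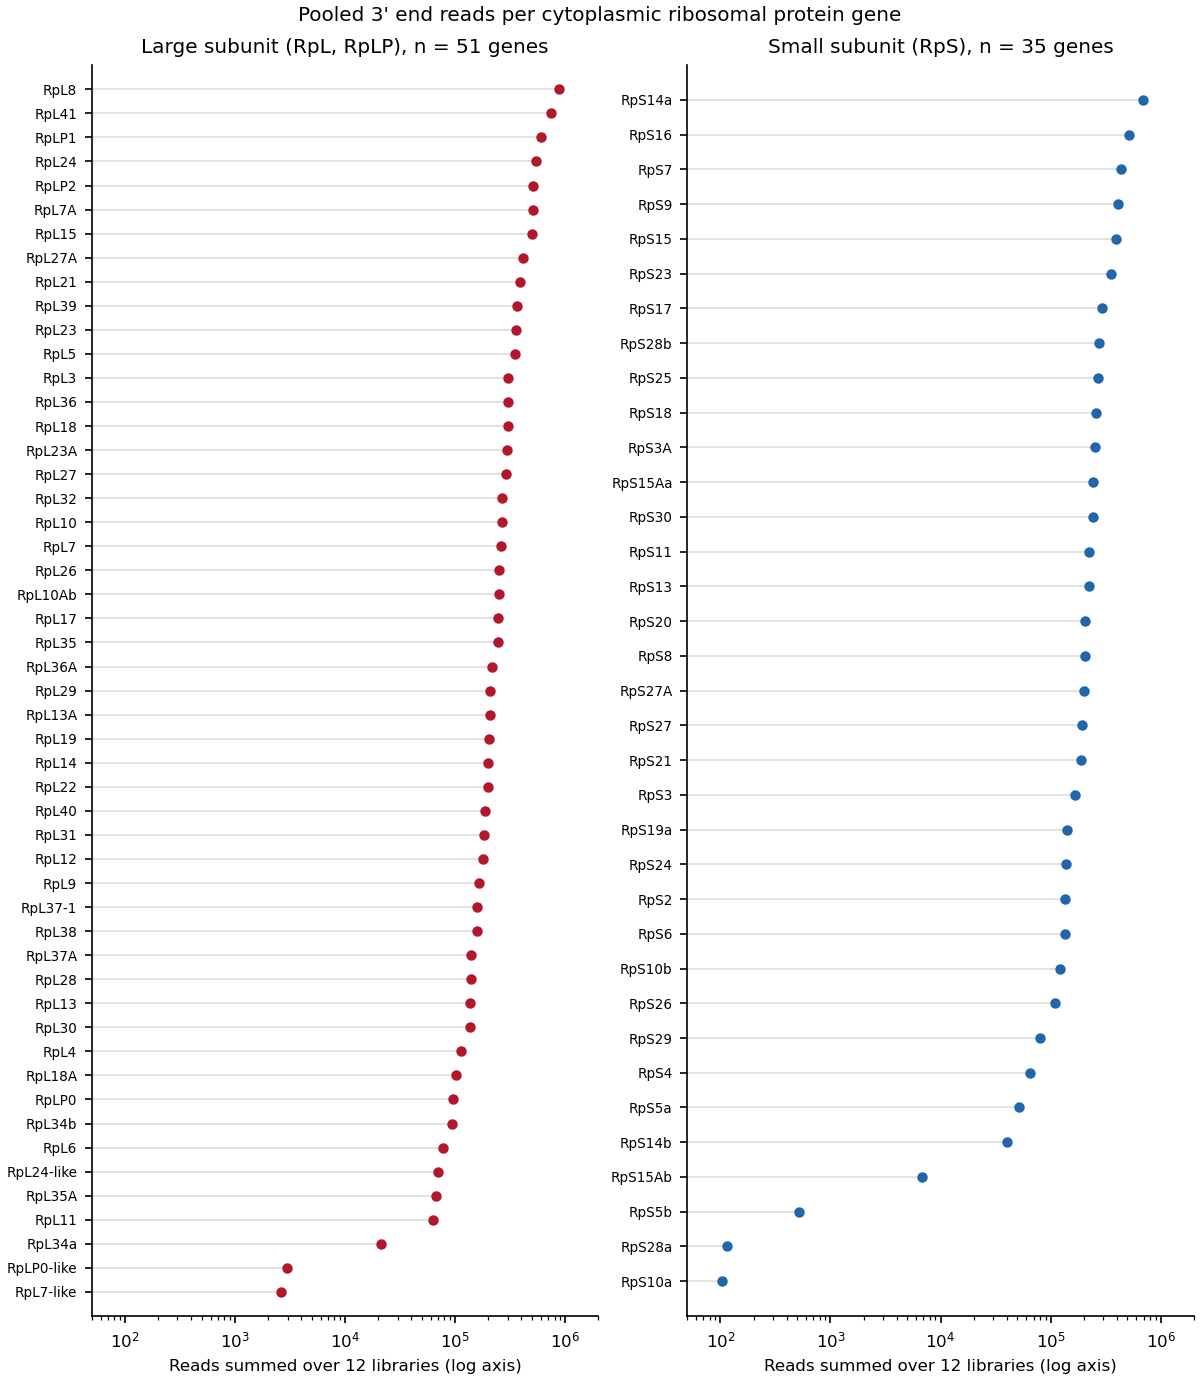
Reads summed over the 12 libraries for each of the 86 ribosomal protein genes (points, log axis), sorted within the large-subunit (left, n = 51) and small-subunit (right, n = 35) genes. Most genes lie within a narrow band around the median of 204602 reads, and a tail of second copies reaches down to 104 reads for RpS10a.

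The gene with the most reads was RpL8 (FBgn0261602, chromosome 3L, 2587456 to 2588883), a protein of the large subunit near its peptidyl transferase centre, with 880212 reads. Only Arr2, the photoreceptor arrestin, had more among protein-coding genes (1514215 reads). RpL41, which encodes the smallest protein of the large subunit, followed with 740791 reads, and RpS14a (FBgn0004403, chromosome X, 7933742 to 7934677), a protein of the small-subunit platform, had 692705. The stalk proteins RpLP1 and RpLP2, which occur in more than a single copy per ribosome, had 597206 and 509819 reads. The anchor of that stalk, RpLP0, had 96064. The first 10 genes were completed by RpL24 (539100), RpS16 (519987), RpL7A (505186), RpL15 (503958) and RpS7 (439562), and these 10 together held 29.3% of all ribosomal protein reads.

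At the other end, the 5 genes with the fewest reads were all second copies or relatives of a ribosomal protein gene. RpS10a had 104 reads, RpS28a 116, RpS5b 516, RpL7-like 2594 and RpLP0-like 2962. The cluster of RpS28a also names the neighbouring gene Mgat2 and lies 440 bases downstream of the annotated end of RpS28a, and that of RpL7-like also names CG34164, so these reads cannot be assigned to the ribosomal protein gene alone. A further 6 annotated genes were named by no cluster. They were RpL10Aa, RpL22-like, RpL37-2, RpS19b, RpS28-like and RpS12. For the first 5, no cluster lay on their strand within 500 bases of the gene. The table lists only clusters with enough depth in a library, so a gene that is not named may still have reads. RpS12 differs, since 3 clusters at its annotated end carry an identifier that is not in the annotation, as described below.

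Paired genes were then set side by side, since each pair encodes the same protein or a close relative. In each of 13 pairs listed, a single copy held at least 81.5% of the reads. For RpS14, the copies lie in tandem on chromosome X, and RpS14a had 692705 reads and RpS14b (FBgn0004404, 7934898 to 7935792) 40284, or 94.5% and 5.50% of the pair. RpL34b and RpL34a, which encode a large-subunit protein, were the most even pair, with 93461 reads (81.5%) and 21169 reads (18.5%). RpL24 held 88.6% of its pair, with RpL24-like at 69257 reads. In yeast, the counterpart of RpL24-like (Rlp24) is an assembly factor of the large subunit, as are those of RpLP0-like (Mrt4) and RpL7-like (Rlp7), so these pairs differ in role.

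The remaining pairs were more uneven. RpS15Aa had 244652 reads and RpS15Ab 6805, and RpLP0 had 96064 against the 2962 of RpLP0-like. RpS5a had 51511 reads and RpS5b, which is known from the germline, 516 (0.992% of the pair). RpL7 had 259401 reads, 99.0% of its pair. RpS10b (121080 reads) and RpS28b (277420 reads) each held over 99.9% of their pairs. RpS19a (141737), RpL10Ab (249499), RpL22 (200792) and RpL37-1 (157278) had partners that no cluster names. Every RpL22 cluster also names lncRNA:CR42491, so the RpL22 reads cannot be assigned to that gene alone. Of the partners without a cluster, RpS19b and RpL22-like are known mainly from the germline. The germline markers were at or near 0 as given above, and a link to the missing clusters was not tested. Shared sequence limits these values. Over the last 100 transcript bases the copies of 12 pairs were 51% to 64% identical, but RpS15Aa and RpS15Ab were 88% identical, and their division is uncertain.

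**Figure D2:**
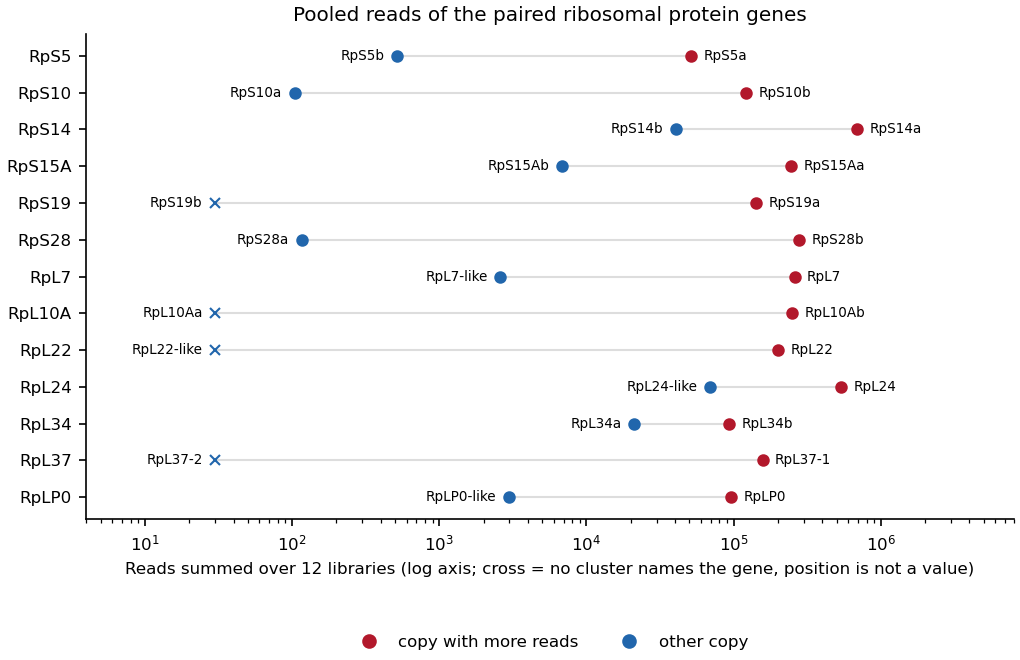
Pooled reads (log axis) of both genes of the 13 ribosomal protein pairs, with the copy that has more reads in red and the other in blue. Crosses mark 4 genes that no cluster names, and their position is not a value. RpL34a comes closest to its partner, at 21169 against 93461 reads.

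The next question was where the clusters lie within the genes. Of 383 ribosomal protein clusters, 239 (62.4%, Wilson 95% interval 57.5% to 67.1%) had their 3′-most base within 50 bases of an annotated transcript end, and these held 93.95% of the reads. The shares over all protein-coding genes were 55.1% of clusters and 86.9% of reads, those of mitochondrial ribosomal protein genes 89.4% and 96.9%, and those of proteasome genes 78.7% and 88.4%. A further 61 clusters (15.9%) lay elsewhere in a 3′ UTR with 5.88% of the reads, and 18 lay up to 500 bases downstream with 0.0272%. Coding sequence held 61 clusters in 32 genes, 15.9% of the clusters (12.6% to 19.9%) but 0.122% of the reads, compared with 7.82% of clusters and 1.18% of reads over all protein-coding genes. Clusters in 5′ UTRs were found in RpL28 and RpL35 alone. No gene reached 10% of its reads in coding sequence and 5′ UTR together, and the highest share in coding sequence was 2.70%, in RpL6. These shares count clusters of very different depth, and the many small clusters around a deep end weigh on the share of clusters but not on that of reads. The authors' filter of A stretches spared bases within 25 bases of annotated ends. Closeness to annotated ends is therefore partly built into the table, in all sets.

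**Figure D3:**
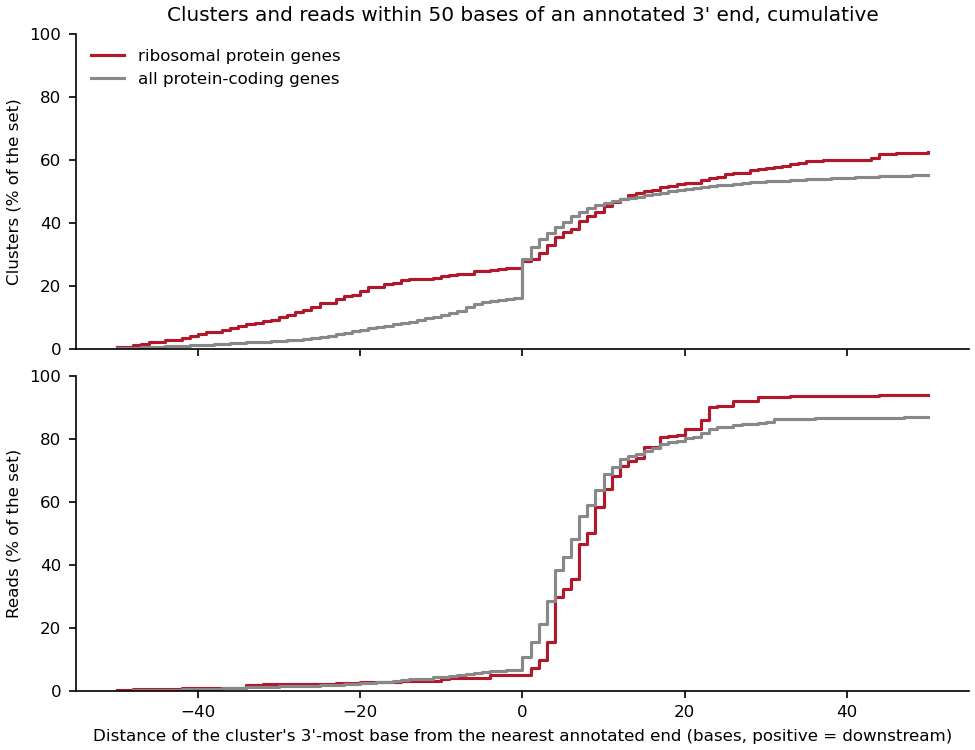
Cumulative share of clusters (top) and of pooled reads (bottom) by distance of the cluster's 3′-most base from the nearest annotated end, for ribosomal protein genes (red) and all protein-coding genes (grey). Positive distances are downstream, and the curves end at 62.4% of clusters and 93.95% of reads for ribosomal protein genes, and at 55.1% and 86.9% for all protein-coding genes.

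Reads were concentrated in a single end per gene. Clusters up to 50 bases apart were joined into an end, and the end with the most reads is called the main end. Joining can merge separate clusters, so a main end need not be a single cleavage site. The largest clusters of RpL30 held 49.0% and 46.8% of its reads, and those of RpL6 held 52.9% and 44.0%. With single clusters in place of joined ends, the median share was 99.1%. The joined main end held a median of 99.9% of a gene's reads (exact binomial 95% interval 99.83% to 99.99%, n = 86), and at least 95% in 80 of 86 genes (93.02%, Wilson 95% interval 85.6% to 96.8%). Over all protein-coding genes 61.5% reached 95%, as did 67 of 72 mitochondrial ribosomal protein genes and 26 of 34 proteasome genes. Many of these genes have few reads and a single cluster, which gives 100% by construction. Among 58 other protein-coding genes with at least as many reads as the lower quartile of the ribosomal protein genes, 41 did (70.7%, 58.0% to 80.8%), and their median share was 99.5%. A deep main cluster was also wide, with a median of 19.5 bases in ribosomal protein genes, 20 bases in these other deeply read genes and 4 bases over all protein-coding genes. The main cluster spanned an annotated end in 74 of 86 ribosomal protein genes (86.0%), compared with 89.7% of the other deeply read genes and 63.6% of all protein-coding genes.

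Several supported ends, meaning ends within 50 bases of an annotated end, were present in 19 of 85 ribosomal protein genes with a supported end (22.4%, Wilson 95% interval 14.8% to 32.3%), compared with 17 of 58 other deeply read genes (29.3%, 19.2% to 42.0%) and 16.4% of all protein-coding genes. The second supported ends were minor, but clusters over 50 bases from an annotated end are not counted here. In RpL24, RpL17 and RpS27 such a cluster held 94.0%, 75.5% and 61.2% of the gene's reads, as described below. The count thus does not show how reads divide in these genes. When each end had to hold at least 5% of the reads at supported ends, 1 of 85 genes kept 2 (1.18%, 0.208% to 6.37%), compared with 13.9% of all protein-coding genes, 12.1% of the other deeply read genes, 1 of 71 mitochondrial ribosomal protein genes and 1 of 33 proteasome genes. That gene was RpS15Aa, a small-subunit protein. It had 211913 reads at a proximal end with a 3′ UTR of 212 bases. An end 85 bases further downstream had 32699 reads (13.4%), of which 31984 lay in a cluster 44 bases before the annotated end. That distance is close to the limit of 50 bases. RpL28 came next, with 4.75% of its supported reads at an end 164 bases beyond the main one. In the other 17 genes the second end held between 0.0427% (RpS9) and 1.60% (RpL11), at distances of 74 to 643 bases.

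**Figure D4:**
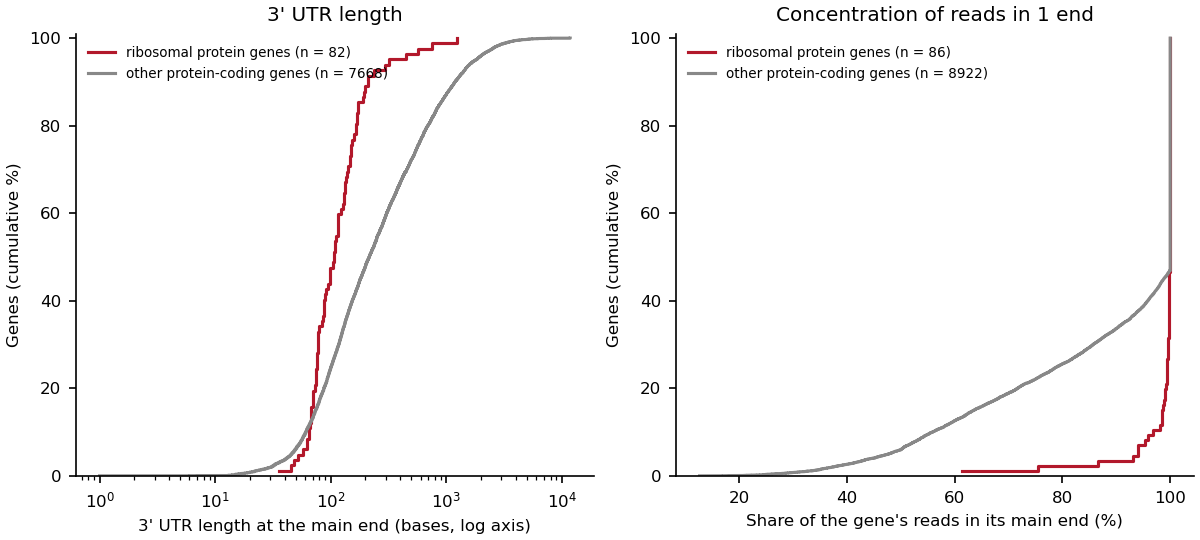
Cumulative distribution over genes of 3′ UTR length at the main end (left, log axis) and of the share of a gene's reads in its main end (right), for ribosomal protein genes (red) and other protein-coding genes (grey). The median length is 107 bases for ribosomal protein genes, and 80 of 86 genes have at least 95% of their reads in the main end.

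In 4 genes the most-read cluster lay in the 3′ UTR but over 50 bases before any annotated end, and these genes carried 89.2% of all ribosomal protein reads in 3′ UTRs away from annotated ends. In RpL24 (chromosome 2L, minus strand), the protein at the interface of the subunits, 506918 reads (94.0%) ended 114 bases after the stop codon, and 28141 (5.22%) at the annotated end 292 bases after it. RpL17 (chromosome X, minus strand), near the exit tunnel, had 186709 reads (75.5%) at 50 bases after the stop codon, 57405 (23.2%) at 152 bases and 2848 (1.15%) at its annotated end. In RpS27 (chromosome 3R, minus strand), a small-subunit zinc-finger protein, the cluster at 180 bases held 119011 reads (61.2%), the annotated end 41513 (21.3%) and a cluster at 84 bases 33430 (17.2%). RpS28b had 156967 reads (56.6%) at 180 bases and 118489 (42.7%) at 240 bases, close enough to be joined into a single end.

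The last 30 genome bases up to the 3′ edge of these main clusters are shown because they lack an annotated end. They were read from the reference genome (Release 6, the assembly of dm6), 5′ to 3′ on the strand of the gene, at chr2L:13394299-13394328 for RpL24, chr3R:25246173-25246202 for RpS27, chrX:6741727-6741756 for RpL17 and chrX:9555125-9555154 for RpS28b, with runs of at least 6 A in capitals.
RpL24: aatgcgaattcgtggtgaccAAAAAAAAAA
RpS27: tgttgtggtcggctaagtgAAAAAAAAAAc
RpL17: cccaagccggtgacaactactgaagctcca
RpS28b: acacctaattcgccagaaaatcagcaaaaa
The main ends of RpL24 and RpS27 thus each hold a run of 10 A inside the cluster, and those of RpL17 and RpS28b hold no run of 6. Oligo(dT) primers can anneal to genomic A stretches, and the authors removed bases followed by such stretches unless near an annotated end. Whether these reads come from polyadenylated ends or from such priming was not tested. Of all 86 ribosomal protein main ends, 11 (12.8%, Wilson 95% interval 7.29% to 21.5%) had a run of at least 6 A in the cluster or the next 10 bases, compared with 10.1% over all protein-coding genes and 22.4% in the other deeply read genes.

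Poly(A) signals were searched on the strand of the gene. The main hexamer AATAAA began 10 to 40 bases before the 3′-most base of the main cluster in 42 of 86 genes (48.8%, Wilson 95% interval 38.6% to 59.2%), compared with 56.3% of 9004 protein-coding genes. This order depended on the window. With 5 to 60 bases, the share was 69.8% (59.4% to 78.5%) in ribosomal protein genes and 60.4% in all protein-coding genes, and with 10 to 40 bases counted from the middle of the cluster it was 68.6% (58.2% to 77.4%) and 57.4%. The median distance from the hexamer to the 3′-most base was 30 bases in ribosomal protein genes, 30 in the other deeply read genes, whose main clusters were similarly wide, and 24 over all protein-coding genes. Each of 11 hexamers was searched in order in the first window, and a gene was counted for the first found. ATTAAA came next with 7 genes (8.14%, compared with 10.4% of all protein-coding genes), and AATACA was present in 8 (9.30%, compared with 3.85%). In mitochondrial ribosomal protein genes AATACA was present in 9 of 72 (12.5%) and AATAAA in 48.6%. In proteasome genes AATACA was present in 0 of 34 and AATAAA in 52.9%. AATATA had 4 genes, TATAAA had 2, ACTAAA had 2, AAGAAA had 4, and CATAAA had 1. GATAAA had 1, AATGAA had 1 and the last, AATAGA, had 0. No hexamer was found in 14 genes (16.3%, 9.95% to 25.5%), compared with 15.05% of all protein-coding genes.

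Signals of 4 of the 10 most-read genes (RpL8, RpS14a, RpLP1 and RpL7A) and of 2 pairs are shown as the 30 genome bases that begin 2 bases before the hexamer, which is in capitals. Positions in the same assembly are chr3L:2588860-2588889 (plus strand) for RpL8, chr2L:420677-420706 (plus) for RpLP1, chrX:6531007-6531036 (minus) for RpL7A, chrX:7934653-7934682 (plus) for RpS14a, chrX:7935768-7935797 (plus) for RpS14b, chr3R:9400365-9400394 (minus) for RpL34b and chr3R:26058412-26058441 (minus) for RpL34a.
RpL8: agAATAAAacgtatttgtaaaactatactt
RpLP1: gaAATATAgaagacgtttgctaaaaaatta
RpL7A: ctAATAAActtttaagtgtacaattttttt
RpS14a: gtAATAAAccaggaaaatacgatgtaaatg
RpS14b: taAATACAtgcataaatgcagtggcaaggg
RpL34b: aaAATAAAttggttttttccaactggattt
RpL34a: gtAATAAAgaaaccacaaattgaagaaatt
RpS14a had AATAAA 39 bases before its main base, and RpS14b had AATACA 40 bases before its own. Both copies of RpL34 had AATAAA, 27 and 29 bases before the main base. RpLP1 had AATATA at 27 bases. Any relation between hexamer and reads was not tested.

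The 3′ UTRs of these genes were short. At the main end, the longest annotated 3′ UTR had a median of 107 bases (exact binomial 95% interval 88 to 129, n = 82), compared with 212 bases (203 to 221, n = 7750) over all protein-coding genes. The medians were 104.5 bases in proteasome genes, 54.5 in mitochondrial ribosomal protein genes and 142 (106 to 185) in the other deeply read genes, whose interval overlaps that of the ribosomal protein genes. With the shortest annotated transcript at the same end, ribosomal protein genes had a median of 91 bases and all protein-coding genes 197. The poly(A) signal began a median of 79 bases after the stop codon, compared with 79 in proteasome genes, 115 in the other deeply read genes and 190 over all protein-coding genes. GC content of the 3′ UTRs was 38.0% (35.4% to 39.7%) in ribosomal protein genes, 38.1% in the other deeply read genes and 34.5% over all protein-coding genes.

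The longest 3′ UTRs belonged to RpL3 (1235 bases), a protein near the peptidyl transferase centre, RpL10Ab (751 bases), of the stalk on the tRNA exit side, and RpL13A (571 bases). Each depended on the transcript chosen, because the shortest annotated transcript that stops at the same end gave 94, 61 and 78 bases. RpS9 (448 and 91 bases) and RpS5b (322 and 95 bases) showed the same difference, and 3′-end reads do not tell these transcripts apart. With the shortest transcripts, no ribosomal protein gene exceeded 293 bases. The shortest 3′ UTRs were those of RpS10a (36 bases), RpL29 (45 bases) and RpL15 (48 bases). In RpS10a, the hexamer ATTAAA began 4 bases before the last base of the stop codon.

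Pum binds the Pumilio response element, counted here as UGUANAUA (N for any base) on the strand of the gene. It occurred in the 3′ UTR at the main end of 1 of 82 ribosomal protein genes (1.22%, Wilson 95% interval 0.216% to 6.59%), compared with 19.1% (18.3% to 20.0%) of 7750 protein-coding genes. These sets differ in 3′ UTR length. Among 2883 other genes with 3′ UTRs between 65.1 and 209.8 bases, the 10th and 90th percentile of the ribosomal protein genes, 9.64% (8.62% to 10.8%) carried the element. In the other deeply read genes 2 of 55 did (3.64%, 1.00% to 12.3%), and in mitochondrial ribosomal protein and proteasome genes 0 of 70 and 0 of 32. Per kilobase of 3′ UTR, the ribosomal protein genes had 0.0835 elements, the other deeply read genes 0.223 and all protein-coding genes 0.528. The ribosomal protein value rests on 1 element and has no interval. Lengths were those of the longest annotated 3′ UTR at each main end. A cluster needed enough depth in only a single library, and the pool includes the pum IP libraries. Genes with the element, or their main ends, may thus have entered the comparison sets through the IP. The effect of this on the shares was not tested.

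The gene with the element was RpLP0-like (chromosome 2R, 10098552 to 10098559 in its 3′ UTR of 73 bases), which had 2962 reads. RpLP0-like is a member by its symbol, and its yeast counterpart is an assembly factor, as given above. When the longest annotated 3′ UTR of each gene was searched instead, 4 of 86 genes carried it (4.65%, 1.82% to 11.4%), with RpL38, RpS10b and RpL11 joining RpLP0-like. The shorter core UGUANA was present in 23 of 82 ribosomal protein genes (28.0%, 19.5% to 38.6%), in 35.9% (34.2% to 37.7%) of other genes of like 3′ UTR length and in 53.7% of all protein-coding genes. It was present in 20.0% of the other deeply read genes (11 of 55), 18.8% of proteasome genes (6 of 32) and 11.4% of mitochondrial ribosomal protein genes (8 of 70). A match says only that these letters are present, and binding in the IP was not analysed here.

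**Figure D5:**
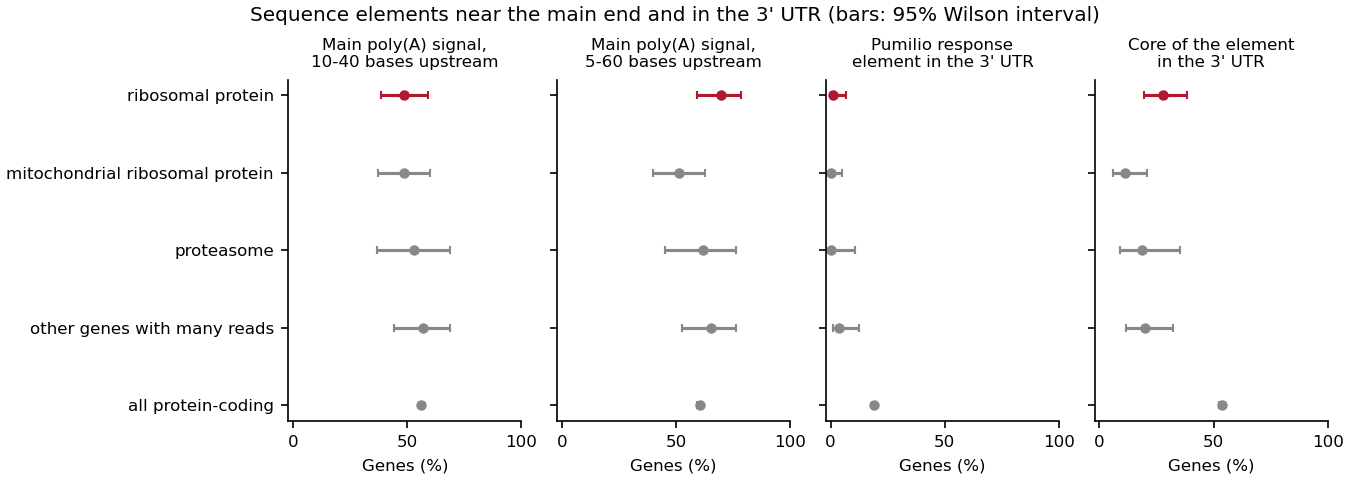
Share of genes (points, with 95% Wilson intervals) with the main poly(A) signal in a window of 10 to 40 or 5 to 60 bases before the 3′-most base of the main cluster, and with the Pumilio response element or its core in the 3′ UTR. Rows show ribosomal protein genes (red), mitochondrial ribosomal protein genes, proteasome genes, other genes with many reads, and all protein-coding genes. The response element was present in 1.22% of ribosomal protein genes and 19.1% of all protein-coding genes.

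The genes were spread over the chromosome arms, with 21 named genes on 3R, 19 on 2R, 18 on 2L, 14 on X, 13 on 3L and RpS3A alone on chromosome 4. Small RNAs hosted by these genes affected how clusters were labelled. Of 383 clusters, 76 also named only snoRNA or miRNA genes, 14 also named another kind of gene, and 293 named the ribosomal protein gene alone. The authors kept signal up to 500 bases downstream of each gene, and in 85 of 88 such small RNA names the cluster lay on the same strand within that distance of the small RNA, with 50 bases of tolerance. With clusters naming more than 1 gene left out, ribosomal protein genes held 17.4% of pooled reads.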

How the data were processed

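The authors trimmed reads with fastp, mapped them with STAR 2.6.1b to dm6, discarded bases ahead of genomic A stretches (6 A in a row, or 7 of 10) unless within 25 bases of an annotated end, extended peaks of at least 6 reads by up to 15 bases into clusters, and deposited a table of read counts per cluster. Its 12 count columns name no library and were summed, so no depth per sample is given. The table counts starts from 0, and printed coordinates count from 1. Genes and ends came from Ensembl release 115 on the same assembly, a later release than the paper names. On it, the commonest distance to an annotated end was 0 on both strands and no cluster lay beyond its chromosome.

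Overlapping rows on the same strand were replaced by the non-overlapping rows with the highest sum of reads, a step chosen after the data were seen. Ranks count a cluster for each gene it names. Values are descriptions without tests, with Wilson or exact binomial intervals at 95%. Python 3.11.15 and Biopython 1.88 were used, and the end calling was tested on simulated data. The simulated ends lay far apart and each at an annotated end. The joining of nearby clusters and the treatment of clusters away from annotated ends were thus not tested.

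Members, pairs and gene lists were chosen with earlier results of these data known. Genes were named by rule: the 10 with the most and 5 with the fewest reads, all paired genes, those with 2 supported ends of at least 5%, those with the main base over 50 bases from an annotated end, the 3 longest and 3 shortest 3′ UTRs, those with a response element, those with at least 10% of reads in coding sequence or 5′ UTR, and those that no cluster names. Other names stand for a count or value singled out afterwards.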

Additional observations from a re-analysis of the deposited data

Results flagged for a closer look

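RpS12, a small-subunit protein, belongs to the family by its symbol but was named by no cluster. At its annotated end on chromosome 3L, 3 clusters name FBgn0260441, an identifier that is not in the annotation used, together with snoRNA:Me28S-A774a. They held 185850 reads in all (110598 at 13024759 to 13024790, 64486 at 13024737 to 13024750 and 10766 at 13024723 to 13024725), a signal outside the clusters counted for the family. By position these reads would place RpS12 at rank 86 among protein-coding genes. The assignment rests on position alone.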

How the results depend on the processing

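Of 26 alternatives to 9 results, 9 stayed within the interval of the value reported and 17 did not. Distances of 25 and 100 bases gave 42.3% and 75.2% of clusters and 88.2% and 95.6% of reads at annotated ends. With clusters naming 1 gene only, 92.7% of reads lay at annotated ends and the family held 17.4% of pooled reads. The family's share was 24.1% with every row counted and 17.0% with the rDNA scaffold in the total. In alternatives chosen after seeing the data, it was 22.7% with overlapping distinct rows kept and 20.2% with RpS12 added, and 95.2% of reads lay at annotated ends with every row counted. Ends of at least 5% of the reads reduced several supported ends to 1.18% of genes. The median share of reads in the main end was 99.1% with single clusters and 99.82% with clusters joined up to 25 bases. AATAAA was present in 69.8% of main ends with 5 to 60 bases and, chosen after seeing the data, in 68.6% when counted from the middle of the cluster. UGUANA gave 28.0%. Intervals on reads are narrow because they cover counting error alone. No paired analysis was possible because the count columns carry no replicate number and no test was made. Depth per library is unknown, deeper libraries weigh more in the sums, and genes without a cluster of enough depth are not seen.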
